A study of Mus musculus with 8 samples.

Results

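Regions listed for BRG1 were described at 10 endothelial and angiogenic genes of the mouse: the vascular endothelial growth factor (VEGF) receptors Kdr, Flt1 and Flt4, the angiopoietin receptors Tek and Tie1, the ligands Vegfa, Angpt1 and Angpt2, and the junction proteins Pecam1 and Cdh5. The genes were chosen by name, with earlier results of these data known. All 10 were found among the 37273 genes of the GENCODE annotation of build mm9 on the autosomes, X and Y. BRG1 is the ATPase subunit of the SWI/SNF complexes, which move nucleosomes along DNA. Chromatin immunoprecipitation followed by sequencing (ChIP-seq) was performed in the study on hearts of adult C57BL/6 mice, aged 10 to 12 weeks per the labels, whereas the methods name C57BL/6J and an older range of weeks. The mice received daily intraperitoneal thymosin β4 (Tβ4, 12 mg per kg, a small actin-binding peptide) or its vehicle PBS for a week, then a myocardial infarction (MI) through lasting closure of the left anterior descending artery of the heart, with further injections on days 0 and 2, and hearts were taken on day 4. There were 8 libraries, made up of 2 BRG1 ChIP and 2 input libraries from PBS-primed and as many from Tβ4-primed hearts. The values below come from 1 deposited list, labelled as BRG1 against input in Tβ4-primed, injured hearts. The methods give the MACS2 function bdgcomp, which scores a signal against its background, but the name of the list follows the output of bdgdiff, which calls differences between conditions. Which of these calls a region stands for cannot be told. The list gives positions alone, without a height, a p-value or a separation of the duplicates, so depth is unknown, no value has a replicate error, and no comparison with PBS-primed hearts was made.

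The list held 524614 regions with a median length of 600 bp, which covered 25.8% of the bases of 21 chromosomes. The transcription start site lay in a region in 24.7% of all genes, near that share. Over all genes the list was thus not concentrated at gene starts. At such a density most genes carry a region, and each gene was therefore described by its covered share, the percent of bases inside regions, and set beside the 200 genes of most similar length. Whole hearts were used, so it cannot be told in which cells BRG1 was bound. The list holds no expression values, and the tissue label could not be checked against marker genes.

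In vessels, VEGF-A is the main growth signal for endothelial cells and acts through KDR (VEGFR2), while FLT1 (VEGFR1) binds it tightly and acts in part as a decoy and FLT4 (VEGFR3) serves VEGF-C and VEGF-D in lymphatic vessels. Angiopoietin-1 from perivascular cells stabilises vessels through the receptor TEK (TIE2), angiopoietin-2 from endothelial cells modulates it depending on context, and TIE1 is the partner receptor of TEK. VE-cadherin (CDH5) and PECAM1 hold endothelial cells together at their junctions. The first introns of Kdr and Tek are known to hold endothelial enhancers in the mouse, and factors of the ETS, GATA, forkhead and SOX families act on genes of this kind.

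Across the 10 genes, BRG1 regions took up less of the gene than in most genes of like length. The covered share of the gene body with 5 kb on each side had a median of 19.4% and ranged from 8.25% at Flt4 to 29.3% at Kdr, against a median of 24.0% over all genes and 25.2% over protein-coding genes. Only Kdr and Pecam1, 2 of the 10, lay above the median of their genes of like length, whereas 50.1% of all genes did. Below the lower quartile were 6 of the 10 (Flt4, Flt1, Tek, Vegfa, Cdh5 and Angpt2), where 25.1% of all genes fell. Angpt2 lay just under its quartile (20.4% against 20.5%), and under other settings the count ran from 5 to 7, as Cdh5, Angpt2 or Angpt1 changed sides. Above the upper quartile lay 0 of the 10, where 25.2% of all genes fell. A region in the gene body was present in 10 of 10 genes, as it was in 68.4% of all genes, many of which are much shorter than these. A region within 5 kb of the transcription start site (TSS) was likewise present in 10 of 10, beside 89.9% of all genes. The TSS itself lay inside a region in 1 of the 10, Angpt2, beside 24.7% of all genes. Counts over 10 genes are small, and with 1 list no test was made of any of them.

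**Figure D1:**
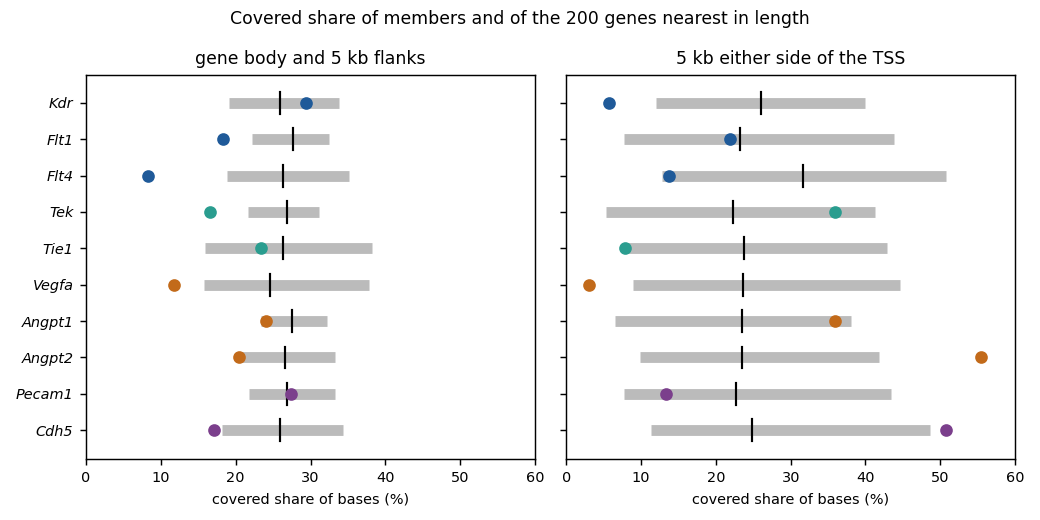
Covered share (% of bases) of each of the 10 genes (points, coloured by role) over the gene body with 5 kb flanks (left) and over 5 kb either side of the TSS (right), with the median (black line) and the interquartile range (grey bar) of the 200 genes nearest in length. On the left 8 of the 10 points lie to the left of their line and none lies beyond the right end of its bar. In the right panel Angpt2 and Cdh5 lie beyond the right end and Kdr and Vegfa beyond the left end. Of all 37273 genes, 9387 and 9309 lie beyond these ends in the TSS window.

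The 3 VEGF receptor genes held both the most and the least covered gene of the 10. Kdr (chr5:76328852-76374483, minus strand) held 12 regions, and its covered share of 29.3% was above that of 62.5% of its 200 genes of like length. Of these 12 regions, 7 touched exons: a region of 270 bp at exon 2, 4 of 1620 to 2610 bp over exons 4 to 6, exon 7, exons 12 and 13 and exons 14 and 15, one of 5220 bp over exon 27 and one of 360 bp at exon 29. Around the Kdr TSS coverage was low. The window of 5 kb either side was covered to 5.70%, against a median of 26% for genes of like length, by 2 short regions alone. The first lay 477 bp upstream of the TSS, and the second began in the last 29 bases of intron 1, took in exon 2 and ran 147 bases into intron 2. That second region covered 0.804% of intron 1, which held no other. Both are printed below from the mm9 genome on the strand of the gene, since they are all that the list holds near the start of the main VEGF receptor. Capitals mark letters that match a motif of an endothelial factor family on either strand: the ETS cores CCGGAA and the variant CAGGAA, the GATA motif AGATAA, the forkhead motif TGTTTNC and the SOX motif ACAAAG. Region 1 is chr5:76374960-76375259 and region 2 is chr5:76370280-76370549, both on the minus strand, and bases 30 to 123 of region 2 are exon 2.
Kdr region 1: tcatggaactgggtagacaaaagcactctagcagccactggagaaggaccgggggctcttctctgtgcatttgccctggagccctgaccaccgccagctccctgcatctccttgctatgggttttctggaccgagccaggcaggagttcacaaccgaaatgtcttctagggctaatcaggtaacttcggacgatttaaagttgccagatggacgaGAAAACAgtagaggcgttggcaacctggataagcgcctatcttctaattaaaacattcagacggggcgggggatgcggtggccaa
Kdr region 2: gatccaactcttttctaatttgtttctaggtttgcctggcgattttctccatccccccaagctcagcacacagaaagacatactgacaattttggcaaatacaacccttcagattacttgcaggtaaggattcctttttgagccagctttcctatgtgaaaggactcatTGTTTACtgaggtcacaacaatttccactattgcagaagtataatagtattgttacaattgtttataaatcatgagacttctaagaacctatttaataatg
Of these 5 motifs, each region held 1 match, to the forkhead motif. At least 1 match to these motifs was present in 67.1% of all 38036 regions of 300 bp and in 63.3% of all 46085 regions of 270 bp.

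Flt1 (chr5:148373180-148537587, minus strand) carried many short regions, 41 in number with a median length of 360 bp. Their number per kb, 0.235, was above that of 67% of genes of like length, while the covered share of 18.4% was above that of only 9% of them. Of the 41, 30 were intronic and 8 touched exons. One region of 1980 bp lay upstream of the TSS and ended 2943 bp before it, and the next, of 210 bp, lay 4138 bp downstream in intron 1. An alternative transcript of Flt1 without a coding sequence starts inside a region, at position 148426818, whereas the TSS of the gene does not. Flt4 (chr11:49422765-49466241, plus strand) was the least covered of the 10. Its 9 regions covered 8.25% of the gene window, a share above that of 2.5% of genes of like length, and a stretch of 23.3 kb, from 6.47 to 29.8 kb after the TSS, held none. Intron 1 of Flt4 held 2 regions, of 1380 and 240 bp, and 6 others lay toward the end of the gene, from intron 23 to exon 30. The short intron 1 regions of Flt1 (chr5:148533240-148533449, minus strand) and Flt4 (chr11:49428990-49429229, plus strand) are printed as examples of short regions inside a first intron, with capitals as above.
Flt1 region 2: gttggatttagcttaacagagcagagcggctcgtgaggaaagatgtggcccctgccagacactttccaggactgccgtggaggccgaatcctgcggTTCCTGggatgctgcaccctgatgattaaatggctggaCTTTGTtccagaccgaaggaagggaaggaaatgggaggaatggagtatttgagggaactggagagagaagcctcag
Flt4 region 2: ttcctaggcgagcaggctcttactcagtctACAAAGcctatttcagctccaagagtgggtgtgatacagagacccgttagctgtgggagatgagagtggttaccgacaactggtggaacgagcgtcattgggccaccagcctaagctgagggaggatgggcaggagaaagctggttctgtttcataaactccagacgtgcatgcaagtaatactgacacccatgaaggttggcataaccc
The Flt1 region held 1 match to the ETS variant and 1 to the SOX motif. The Flt4 region held 1 match to the SOX motif. Any of the 5 endothelial motifs was found in 54.4% of regions of 210 bp and in 59.1% of regions of 240 bp.

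Of the 2 angiopoietin receptor genes, Tek (chr4:94405980-94541667, plus strand) was covered to 16.5%, above 10% of genes of like length, and Tie1 (chr4:118143796-118162666, minus strand) to 23.4%, above 43.5% of them. Tek carried the longest region of the 10 genes, one of 7380 bp that ran from -8790 to -1411 bp relative to the TSS and was longer than 98.6% of all regions. It covered 71.8% of the 5 kb upstream of the Tek TSS, while the 5 kb downstream were covered to 0%. Intron 1 of Tek, which spans 41123 bp, held 9 regions, all between 12.5 and 41.3 kb after the TSS, and was covered to 20.1%, above 34.5% of introns of like length. After 120 kb the last 20.2 kb of the gene window held no region. The middle 250 bases of the first region of that intron (chr4:94418695-94418944, plus strand, mm9) are printed as the intronic region nearest to the Tek TSS.
Tek region 2: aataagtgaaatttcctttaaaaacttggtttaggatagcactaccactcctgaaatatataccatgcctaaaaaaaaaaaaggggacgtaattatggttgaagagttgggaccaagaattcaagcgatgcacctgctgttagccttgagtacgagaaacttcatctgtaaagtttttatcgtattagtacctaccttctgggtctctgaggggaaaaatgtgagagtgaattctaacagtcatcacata
It held 0 matches to the 5 endothelial motifs and so carries no capitals, where 61.2% of all 463237 regions of at least 250 bp held 1 or more in their middle 250 bases. Tie1 held 4 regions. One ended 1964 bp upstream of the TSS, one of 300 bp lay in intron 3, and one of 5550 bp covered exons 18 to 23 at the end of the gene, with 10.1 kb free of regions before it. Intron 1 of Tie1, at 2962 bp, held 0 regions. The Tie1 window also overlaps the pseudogene Gm12859, which lies upstream, and the region there cannot be assigned to either gene.

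The 3 ligand genes differed at their TSS. At Angpt2 (chr8:18690263-18741562, minus strand) a region of 5550 bp ran from -2017 to 3532 bp relative to the TSS and held the TSS and exon 1. It covered 55.5% of the TSS window, a share above that of 85.5% of genes of like length, the highest of the 10. The Angpt2 gene as a whole was covered to 20.4%, above 25% of genes of like length, and its 7 regions in intron 1 covered 17.7% of that intron. Angpt2 lies inside Mcph1 (chr8:18595131-18803189), a regulator of chromosome condensation on the opposite strand, so a region there belongs to both gene windows. At Vegfa (chr17:46153942-46169326, minus strand) the TSS window was covered to 3.0%, above 10.8% of genes of like length, the lowest of the 10. A stretch of 15.7 kb without a region ran from -0.943 to 14.7 kb relative to the Vegfa TSS, almost to the end of the gene, so that its introns were covered to 0%. The region at the Vegfa gene end, of 720 bp, and 4 more downstream of it made up most of the 11.8% covered in the window. The one region upstream, 944 bp before the TSS (chr17:46170270-46170569, minus strand), is printed because it alone lay near the start of this gene.
Vegfa region 1: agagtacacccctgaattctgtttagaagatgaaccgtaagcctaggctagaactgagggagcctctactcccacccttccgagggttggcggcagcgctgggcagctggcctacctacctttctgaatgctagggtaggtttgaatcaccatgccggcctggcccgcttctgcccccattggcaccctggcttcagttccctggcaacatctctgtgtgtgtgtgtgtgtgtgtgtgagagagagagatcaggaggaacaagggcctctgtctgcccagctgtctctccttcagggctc
It held 0 matches to the 5 endothelial motifs, where 67.1% of regions of its length held at least 1. Angpt1 (chr15:42256273-42508523, minus strand) is the longest of the 10 genes and carried the most regions, 43, of which 39 were intronic. Its gene window was covered to 24.0%, above 27% of genes of like length, and its first intron of 152505 bp alone held 30 regions and was covered to 23.4%. The Angpt1 TSS window was covered to 36.0%, above 73% of genes of like length, by a region that ended 2227 bp upstream and one that began 4134 bp downstream. The long non-coding gene Gm17473 starts within Angpt1 on the other strand, and the region upstream of Angpt1 lies inside it.

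The 2 junction genes were covered in different places. Pecam1 (chr11:106515531-106611942, minus strand) held 36 regions, and their number per kb of 0.338 was above that of 98% of genes of like length, the highest rank of the 10. As its regions were short, with a median of 480 bp, the covered share of 27.4% was above that of 53% of genes of like length, and its rank ran from 35.5% when only regions of at least 600 bp were counted to 66.5% among genes also near in GC content. The longest stretch of Pecam1 without a region, 8.67 kb, was shorter than in all but 2.5% of those genes, and it lay over the TSS, from -3.95 to 4.72 kb. That TSS is the start of 1 of 7 annotated Pecam1 transcripts, and 5 other protein-coding ones start between positions 106576260 and 106576708, where no start lay in a region but regions lay on both sides, at chr11:106575720-106576169 and chr11:106577040-106577459. The region upstream of the Pecam1 TSS lies inside the protein-coding gene Gm885 on the other strand and cannot be assigned to either gene, and the small nucleolar RNA gene U3 lies in the gene body. Intron 1 of the Pecam1 transcript with the upstream start held 13 regions over 34958 bp and was covered to 30.04%. Cdh5 (chr8:106625525-106668402, plus strand) held few regions. Of its 5 regions, 1 lay upstream of the TSS and 4 in the first 17.7 kb after it, and the remaining 30.2 kb of the gene window, from intron 2 onward, held none, a longer gap than in 96% of genes of like length. A region of 3270 bp ended 66 bp upstream of the Cdh5 TSS and another of 1800 bp began 205 bp downstream, so that the TSS lay in a gap between them while its window was covered to 50.7%. The gene window of Cdh5 was covered to 17.1%, above 21% of genes of like length.

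**Figure D2:**
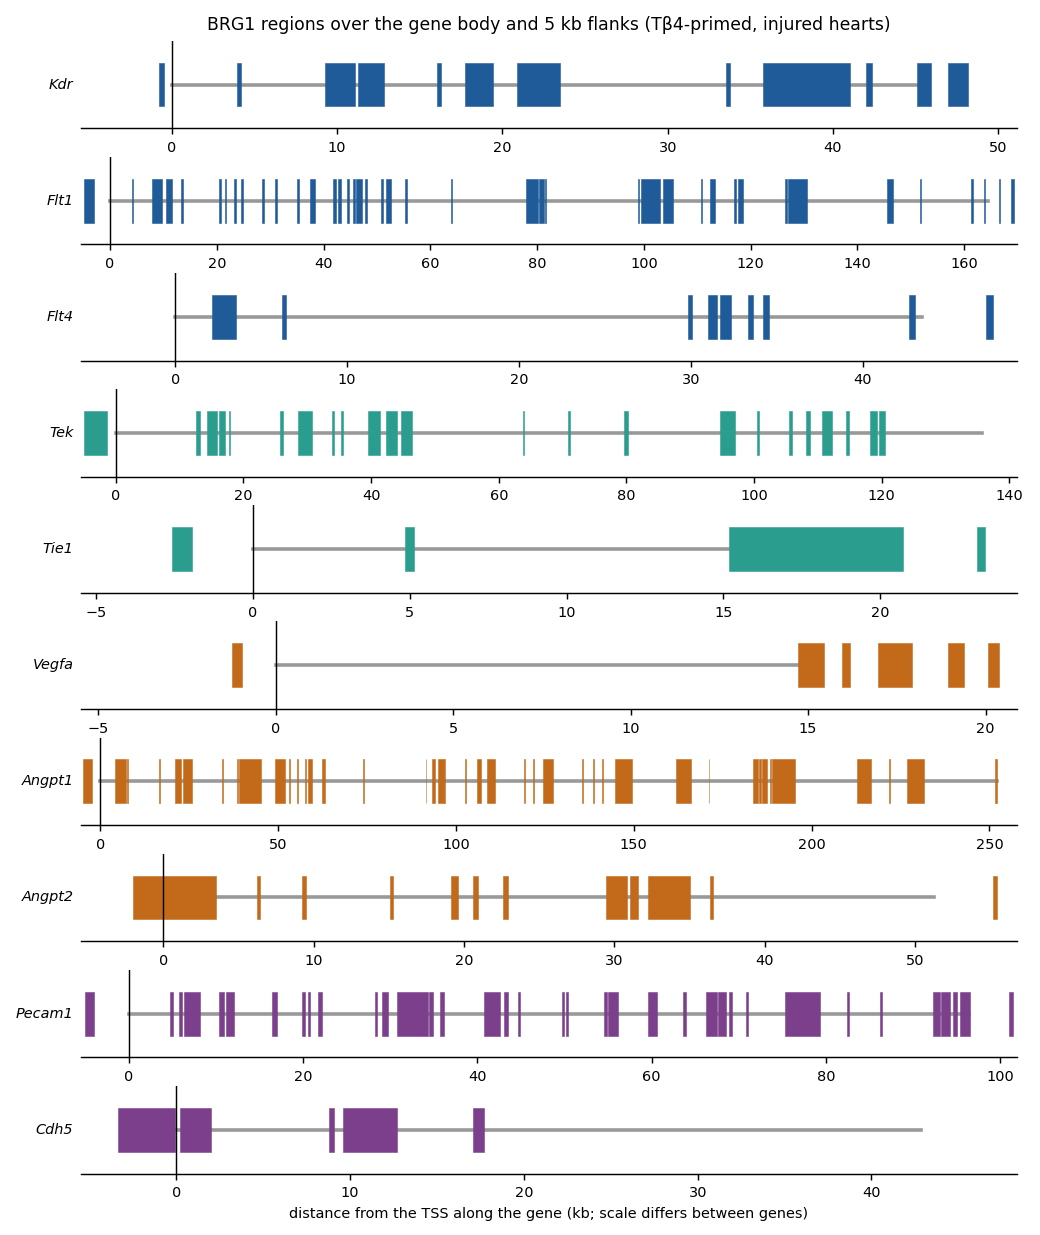
Position of each BRG1 region (coloured blocks) along the 10 genes with 5 kb on each side, in kb from the TSS with the gene body (grey line) to the right, drawn at a scale of its own for each gene. The longest stretch without a region is 8.67 kb at Pecam1, 15.7 kb at Vegfa, 23.3 kb at Flt4 and 30.2 kb at Cdh5.

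Near the TSS the median covered share of the 10 genes, 17.8%, was below that of all genes (21.5%), and 4 of the 10 (Tek, Angpt1, Angpt2 and Cdh5) lay above the median of genes of like length, beside 50% of all genes. By number of regions in that window, 1 or 2 in each of the 10 genes, 0 of the 10 lay above the median, beside 40.5% of all genes. The 4 genes above and the 6 below were mixed in role, with 0 of the 3 VEGF receptors above. Flt1 was close to the median, at 49%, and lay above it when only regions of at least 600 bp were counted (53%) or the genes were also near in GC content (51.2%). The TSS lay a median of 1688 bp from the nearest region in the 10 genes and 790 bp in all genes. Closer windows left out more of the 10: a region lay within 2 kb of the TSS in 6 (69.6% of all genes), within 1 kb in 4 (54.3%) and within 0.5 kb in 3, namely Angpt2, Cdh5 and Kdr (43.1%). Distances and counts used 1 start per gene, for the 10 and for all genes, and for Pecam1 this was the upstream start. From the cluster of its 5 other protein-coding starts described above, Pecam1 would have a region within 0.5 kb. Coverage was not even on the 2 sides of the TSS, a comparison added after the positions were seen. The 5 kb upstream had a median covered share of 30.3% and the 5 kb downstream 5.48%, where all genes had 16.9% and 16.3%. The upstream side was the more covered in 8 of the 10, beside 45.1% of all genes, and Flt4 and Angpt2 had the reverse. In steps of 1 kb the mean covered share of the 10 genes was 38.8% at 4 to 5 kb upstream and 22.9% in the last kb before the TSS, and after it lay between 11.2% (3 to 4 kb) and 20% (1 to 2 kb), with 17.1% at 4 to 5 kb, while that of all genes stayed between 25.3% and 27.0%. Most of the upstream share lay at Tek, Cdh5, Angpt1, Angpt2 and Flt1.

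**Figure D3:**
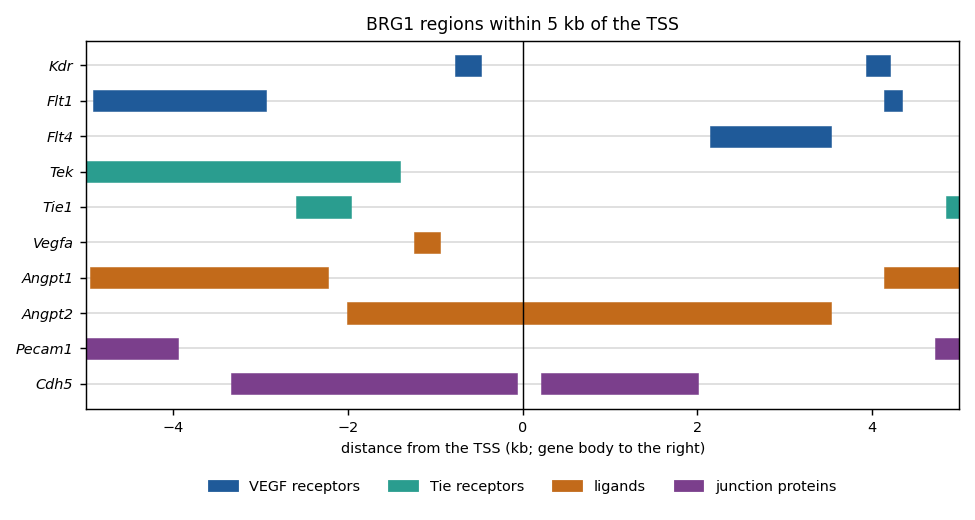
BRG1 regions (blocks, coloured by role) within 5 kb of the TSS of the 10 genes, in kb from the TSS with the gene body to the right. The block of Angpt2 is the only one over the TSS, those of Cdh5 end 66 bp before and begin 205 bp after it, and Vegfa and Kdr show only short blocks.

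Each region was placed by the exons of the main transcript of its gene, the one with the longest coding sequence. Within the 10 gene windows, 134 of the 192 regions were intronic, 33 touched an exon, 8 lay upstream, 11 lay downstream and 6 lay in a gene outside its main transcript. They were shorter than the list as a whole, with a median of 450 bp against 600 bp, and 35.4% of them were at most 300 bp long, against 27.7% of all regions. Covered bases were instead counted with the exons of all annotated transcripts. Added up over the 10 genes, 15.4% of exon bases and 20.7% of intron bases were covered. The region at the Vegfa gene end, outside the main transcript, is exonic in this count. Exons were the more covered in Pecam1 (38.4% against 28.1% of introns), Kdr (32.5% against 31.8%) and Vegfa (15.6% against 0%), and introns in the other 7. Exons and introns were not compared over all genes, so it cannot be told whether these shares and counts are usual. First introns held a region in 8 of the 10 genes, all except Tie1 and Vegfa, whose first introns are short, and 64.7% of the first introns of all 19398 protein-coding genes with introns did so. The highest covered share of a first intron was that of Cdh5, 33.5%, above 68% of first introns of like length, and the next was that of Pecam1, above 60.5%. The other 8 ranked below the middle, between 16.2% and 35%.

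Other genes of these pathways and of endothelial cells were described in the same way. A wider list of 42 endothelial genes had a median covered share of 26.9%, and 22 of the 42 (52.4%) lay above the median of genes of like length, beside 50.1% of all genes. The TSS lay in a region in 11 of the 42 (26.2%), beside 24.7% of all genes. Both counts were near the share over all genes. Among the ligands and co-receptors of the receptors above, Nrp1 (33.2%) and Nrp2 (40.5%), the neuropilins that bind VEGF beside its receptors, lay above 81.5% and 93% of genes of like length. Vegfb (36.8%) and Pgf (33.2%), ligands of FLT1, lay above 74% and 71%. Vegfc (25.3%) and Figf (14.3%), ligands of FLT4, lay above 41% and 16%, and Angpt4 (42.4%), a further angiopoietin, above 85%. Ptprb, a phosphatase that acts on TEK, was covered to 26.3%, above 48%, and Dok2 (12.8%) and Bmx (23.4%), which act downstream of TEK, lay above 26% and 39.5%. Plxnd1, a semaphorin receptor of vessels, was covered to 5.92%, above 2% of genes of like length. The highest of the wider list were Aplnr, the apelin receptor (98.5%), the transcription factor Sox18 (79.0%) and Lyve1, a receptor of lymphatic vessels (53.9%). The lowest were Sox7 and Sox17, whose windows held 0 regions, and Esam, a junction protein (2.67%). The 2 lists differ in gene length, with a median of 48466 bp in the 10 genes and 23182 bp in the wider list, and the difference between them was not tested.

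**Figure D4:**
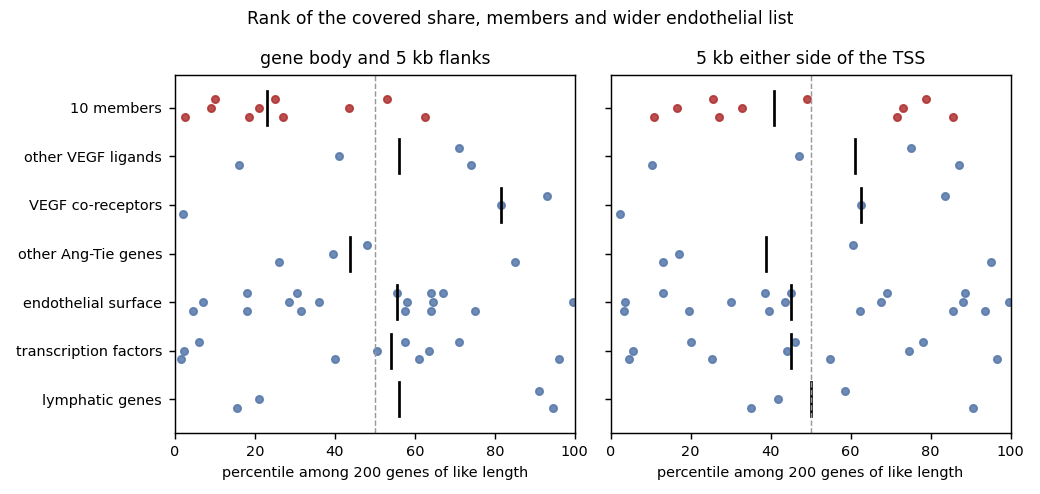
Percentile of the covered share of each gene among the 200 genes nearest in length, for the 10 genes (red) and the 42 genes of the wider list by role (blue), over the gene window (left) and the TSS window (right), with the median of each set (black line) and the middle rank (dashed). The median percentile of the 10 genes is 23 on the left and 40.9 on the right, and that of the whole wider list is 53 and 46.5.

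Base composition and motif letters were compared as descriptions of sequence. GC content of the gene windows ran from 37.5% at Angpt1 to 52.9% at Vegfa, and 7 of the 10 genes (all but Angpt1, Tek and Kdr) lay in the upper 2 of 5 equal bins of all genes by GC content. Over all 37273 genes, which share the list and differ in length, the covered share had a Spearman correlation of -0.02 with GC content, and its median lay between 23.5% and 24.6% in each bin. The 192 regions had a median GC content of 45.0%, and the whole list 41.6%. The median over the gene windows was 46.7% for the 10 genes and 43.8% for all genes. Per kb of region, the ETS core CCGGAA occurred 0.120 times in the 192 regions and 0.0764 times in all regions of at most 100 kb, and it was present in 22 of the 192 (11.5%) and in 8.04% of all regions. In the whole gene windows of the 10 genes it occurred 0.114 times per kb, so that regions and their surroundings held it at near rates. For the other letters the rates per kb in the 192 regions and in the whole list were 1.10 and 1.09 for the ETS variant, 0.680 and 0.774 for GATA, 1.07 and 1.05 for forkhead, 0.983 and 1.02 for SOX, 1.53 and 1.74 for CCAAT, and 0.463 and 0.504 for the C/EBP letters TTGCNNAA. Each of these was present in a smaller share of the 192 regions than of all regions. The shares were 52.6% against 53.9% for the ETS variant, 37.5% against 43.7% for GATA and 49.5% against 52.6% for forkhead. For SOX they were 44.8% against 52.3%, for CCAAT 59.4% against 65.7% and for C/EBP 28.6% against 35.5%. The CCAAT and C/EBP letters are not capitalised in the printed sequences. Kdr region 2 held 2 C/EBP matches, Flt4 region 2 and Vegfa region 1 held 1 CCAAT match each, and the other printed sequences held 0 of either. All counts took both strands, and matches to different motifs could overlap. The shares of regions with a match took no account of region length. The 192 regions were shorter, with a median of 450 bp against 600 bp in the whole list, and so offered fewer positions for a match.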

How the data were processed

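The authors made BRG1 ChIP and input libraries in duplicate from PBS- and Tβ4-primed, injured hearts. Per the submitters' notes, reads were mapped with Bowtie 1.0.0 to mm9 and regions were called with MACS2 2.0.10. The deposited list holds region boundaries in bp, without counts or signal, for the Tβ4-primed hearts. The methods name the MACS2 function bdgcomp, but the list is named like an output of bdgdiff, so the call is uncertain. How the duplicates were combined is not given in the sources used here. No per-sample value was used.

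Positions were counted from 1, and the mm9 genome and GENCODE vM1 served as reference, restricted to 19 autosomes, X and Y. Overlap needed at least 1 bp. The TSS was the 5-prime end of the gene. Each gene was ranked among the 200 genes nearest in length, with ties counted at the midpoint. Python 3.11.15, numpy 2.4.6, pandas 2.3.3 and bedtools 2.31.1 were used. Tested on simulated regions, the counting returned what bedtools gave in 37273 of 37273 genes.

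The genes and lists were chosen with earlier results of these data known. All 10 genes were named, with the 3 highest and 3 lowest of the wider list, direct partners of the 10 and neighbouring genes. Sequences of the first Kdr and Tek intron regions were to be printed by that rule, and those of Kdr region 1, Flt1, Flt4 and Vegfa were chosen after their positions were seen. Promoter sequences of RefSeq are of another build and were not used here. Alternatives joined or dropped regions and changed windows, TSS and reference genes.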

Additional observations from a re-analysis of the deposited data

How the results depend on the processing

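The values rest on 1 list without heights or replicates, so no depth, error or threshold could be varied, and only positions and reference genes were. No paired analysis was possible because the list gives no value per replicate. With regions within 500 bp joined, 2 TSS lay in a region (Angpt2 and Cdh5) and the median covered share of the gene window was 20.3%. Counting regions within 500 bp of the TSS gave 3 genes, and any annotated transcript start 2. With 1 start per gene, a region lay within 2 kb of the TSS in 6 genes and within 1 kb in 4. With regions of at least 600 bp only, the median share was 16.2% in the gene window, where 1 gene lay above its like-length median, and 16.8% in the TSS window, where 5 did, and 8 genes had a region within 5 kb of the TSS. The TSS window also gave 5 genes against all genes or genes near in GC content. The gene body alone gave 18.8% and 10 kb flanks 20.96%. Around the TSS, 2 kb gave 4.21% (14.7% over all genes) and 10 kb 22.6% (23.6% over all genes). By regions per kb in the TSS window, 0 genes lay above the median, beside 40.5% of all genes. Of 70 alternative ranks in the gene window 65 stayed within the 95% interval of the main rank, and Pecam1 lay below the middle with regions of at least 600 bp only (35.5%) and at it among the 100 nearest genes (50%), where 2 genes still lay above their median, and rose to 66.5% among genes near in GC content. Of 50 in the TSS window 46 stayed within it, and 2 crossed to the upper side, both of Flt1 (53% and 51.2%). In each tally 1 setting dropped regions longer than 100 kb, and 0 windows of the 10 genes touched such a region. The ranks under that setting equalled the main ranks and are no evidence of stability. The interval treats the 200 genes of like length as independent draws. It is no replicate error, as the list does not separate the duplicates. These counts therefore do not show how the ranks would vary between hearts. The count below the lower quartile, tried after the values were seen, was 7 with joined regions (Angpt1 added), 5 with regions of at least 600 bp or near GC content (Cdh5 lost) and 5 with more genes of like length (Angpt2 lost).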

Other observations

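Genes of other cell types of the heart, listed in the same way and described without a test, had higher median covered shares of the gene window than the 19.4% of the 10 endothelial genes in each of 4 lists. The median was 35.7% for 6 cardiomyocyte genes, 43.2% for 5 mural cell genes, 27.3% for 5 fibroblast genes and 29.4% for 5 leukocyte genes, beside 25.2% for protein-coding genes and 26.9% for the wider endothelial list. Their median percentiles among genes of like length were 73, 85.5, 50.5 and 60.5, and the fibroblast genes spanned nearly all ranks, from 0.5 at Col1a1 to 99.5 at Col1a2. In the TSS window the medians were 21.7%, 27.0%, 11.7% and 17.5%, the last 2 below the 17.8% of the 10 endothelial genes. Of the mural genes, Rgs5 (51.2%) and Cspg4 (52.0%), both markers of pericytes, lay above 97% and 96.5% of genes of like length, and Myh11, a myosin of smooth muscle, was covered to 23.3%. Of the fibroblast genes, the collagen gene Col1a2 was covered to 59.5%, while the window of Col1a1 held 0 regions. Of the 5 leukocyte genes, 4 lay above the median of genes of like length, beside 50.1% of all genes. So did 4 of the 6 cardiomyocyte, 4 of the 5 mural and 3 of the 5 fibroblast genes. The leukocyte gene below it was Lyz2, a lysozyme gene of myeloid cells, which was covered to 1.0%. Among the cardiomyocyte genes, the covered share ran from 15.4% at Nppa, a natriuretic peptide gene, to 45.4% at Actc1, an actin of the sarcomere. The TSS lay in a region in 2 of the 6 cardiomyocyte genes, beside 24.7% of all genes. It did so in 1 of the 5 mural, 0 of the 5 fibroblast and 1 of the 5 leukocyte genes. The cells in which BRG1 was bound at any of these genes cannot be told from chromatin of whole hearts.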
